A study of Mus musculus with 12 samples.

Results

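Integrins are the surface receptors through which glomerular cells hold on to their matrix, and 10 of their subunits were followed here in glomeruli of 2 mouse strains. The set was Itga1, Itga2, Itga3, Itga5, Itga6, Itgav, Itgb1, Itgb5, Itgb6 and Itgb8, chosen by gene symbol out of 18193 genes on the array. They had 30 of the 34945 probe sets that carry a single symbol, and each gene was read from its probe set with the highest mean log2 signal over all 12 arrays, with the others as a check.

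The study asked how genetic background shapes anti-GBM glomerulonephritis (anti-GBM GN), in which antibody binds the glomerular basement membrane and injures the capillary wall. Its 4 groups were 129S2SvPAs mice with anti-GBM GN, 129S2SvPAs controls, C57BL6J mice with anti-GBM GN and C57BL6J controls, each of 3 females of 8 to 10 weeks from one supplier, with 1 Affymetrix array per mouse. Challenged mice received nephrotoxic serum on days 0, 1 and 2 and were killed on day 4, when their glomeruli were collected on nylon sieves of 100 and 45 µm. Both strains are inbred lines with no engineered allele named in the labels, and the labels do not say what the controls were given.

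An integrin is a pair of 1 alpha and 1 beta chain, and the pair decides which matrix protein is bound. With Itgb1, the subunits Itga3 and Itga6 form laminin receptors, Itga1 and Itga2 collagen receptors, and Itga5 the main fibronectin receptor. Itgav pairs with Itgb1, Itgb5, Itgb6 or Itgb8 to bind ligands with the RGD motif, and the pairs with Itgb6 and Itgb8 release active TGF-beta from its latent complex. In the glomerulus the laminin receptor of Itga3 and Itgb1 ties podocyte foot processes to the basement membrane, and mice or people that lack Itga3 have a disordered filtration barrier.

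All values are log2 probe set signals as deposited, and a difference is anti-GBM GN minus control or 129S2SvPAs minus C57BL6J on that scale. Of the 10 subunits 8 passed the filter on low values (at least 3 arrays with a signal over 3.03, the median of all deposited values), as did 11920 genes in all, and these 8 were above that median on every array. Itga2 lay between 2.65 and 2.70 and Itga5 between 2.86 and 3.00 over the 12 arrays, on the floor of the scale, where a change cannot be read. The other 3 probe sets of Itga5 were also near the floor, and the highest single value among them was 3.78. Tests are limma's moderated test over all 12 arrays with Benjamini-Hochberg adjustment over all genes tested, calls were made below an adjusted p of 0.05, and the small number of arrays limits the precision.

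Isolated glomeruli were present by their markers. Of 10 podocyte markers on the array, Podxl lay between 10.07 and 12.32 and Clic5 between 8.99 and 11.10, and none of the 10 was below the table median on all arrays. These were 2 of the brighter ones, and the list ran from 2.90 (Ddn) to 12.32 (Podxl). Tubule transcripts were bright too, so the preparations were not pure. The 14 proximal tubule markers lay between 9.06 (Cyp2e1) and 14.26 (Fbp1), and the 10 distal nephron markers between 4.97 (Pvalb) and 13.94 (Umod). Array medians ran from 2.99 to 3.06. One array, 129S2SvPAs anti-GBM GN replicate 1, differed most from its group, with Pearson's r of 0.986 to each of the other 2 across probe sets, against 0.997 between those 2. In RNA from whole glomeruli, fewer cells of a type and less RNA per cell cannot be told apart.

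**Figure D1:**
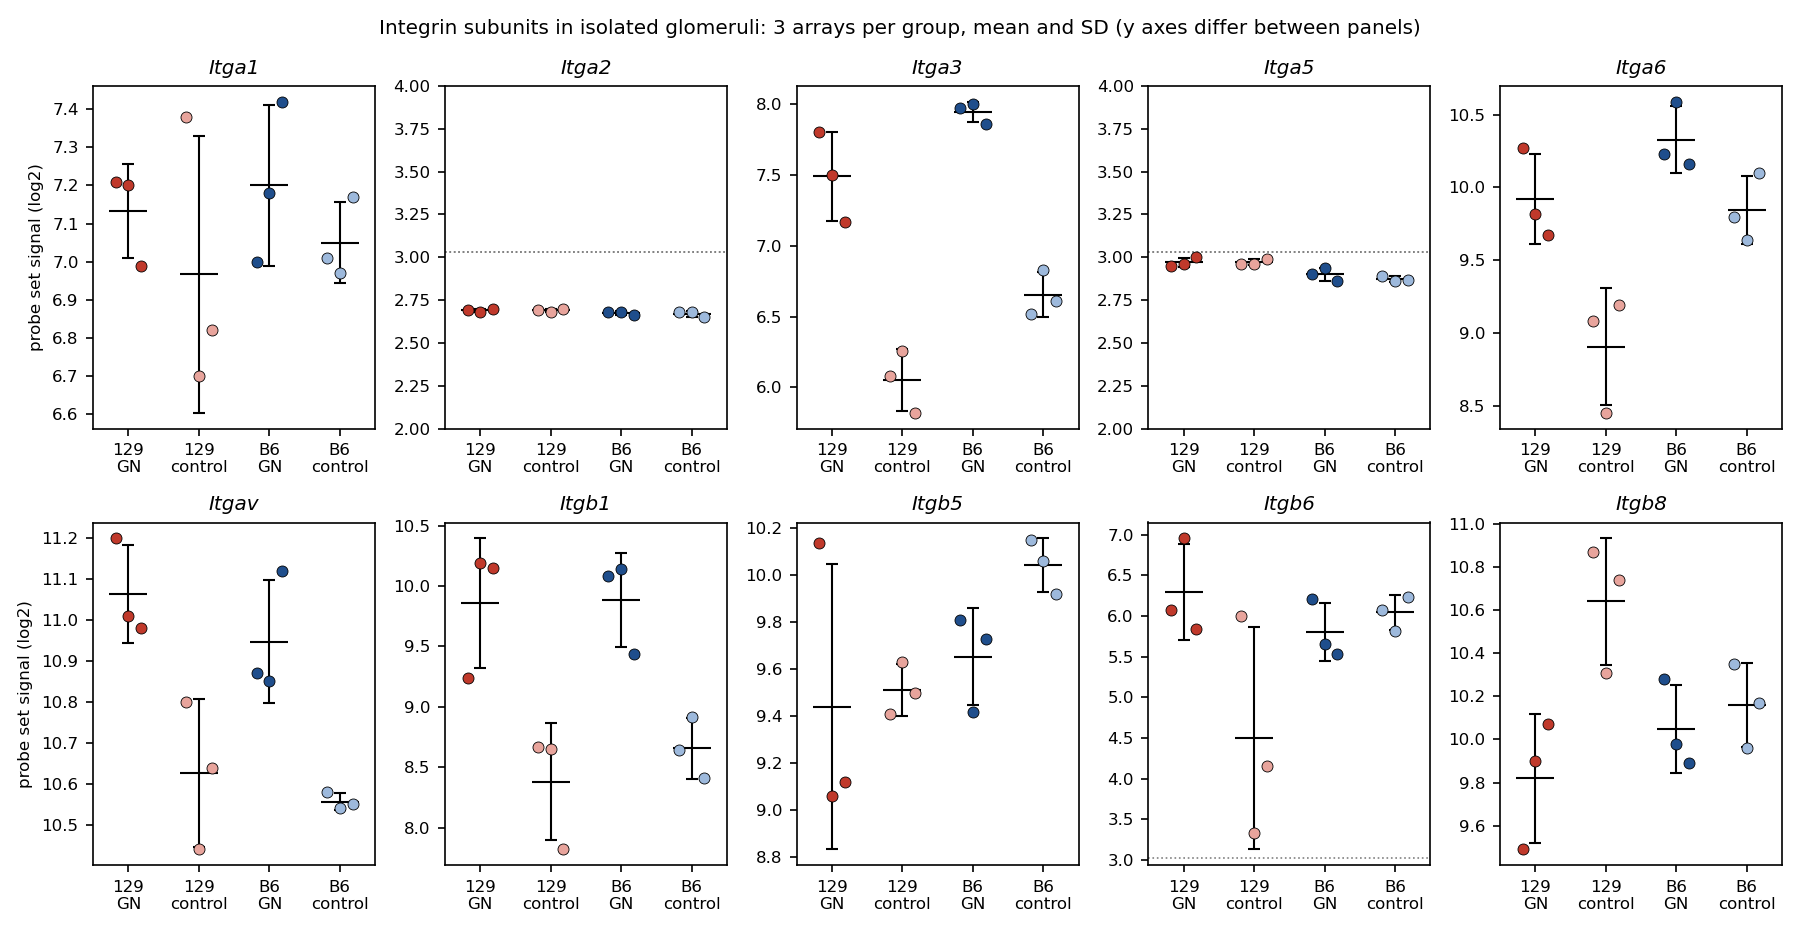
Log2 signal of the 10 integrin subunits on each of the 12 arrays, by group, with the group mean (bar) and SD (whiskers, n = 3). Itga3 and Itgb1 are higher in anti-GBM GN in both strains, Itgb8 is lower in 129S2SvPAs anti-GBM GN than in 129S2SvPAs controls, and Itga2 and Itga5 stay under the dotted line at 3.03, the table median.

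In 129S2SvPAs glomeruli 5 of the 8 measured subunits rose with anti-GBM GN and 1 fell. The laminin receptor chains Itga3, Itga6 and Itgb1 rose by 1.01 to 1.48 and the RGD receptor chains Itgav and Itgb6 by 0.44 and 1.80, while Itgb8 fell by 0.82. Among all genes tested 20.3% were called in this comparison, 10.6% higher and 9.77% lower. The median difference of the 8 subunits was 0.73, beside 0.0033 for all genes. In C57BL6J glomeruli 2 of the 8 rose, Itga3 and Itgb1, where 7.09% of all genes were called, 4.78% higher and 2.31% lower. Their median there was 0.27, beside -0.033 for all genes. Itga3 and Itgb1 were thus called higher in both strains, as were 3.58% of all genes. The subunits were chosen with earlier results of these data known, so these counts and medians only describe them and are not a test of the set.

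Promoter sequences are shown for the pair that rose in both strains and for the subunit that fell in 129S2SvPAs, each as the 250 bases before the annotated start, 5′ to 3′ on the gene's strand, from RefSeq in build GRCm38.p6. Capitals mark matches, on either strand, to a GC box (GGGCGG), an AP-1 site (TGANTCA) or a TEAD site (GGAATG), motifs that do not overlap each other in these windows. Itga3 lies at chr11:95076715-95076964 on the minus strand, Itgb1 at chr8:128685404-128685653 on the plus strand and Itgb8 at chr12:119238277-119238526 on the minus strand.
Itga3: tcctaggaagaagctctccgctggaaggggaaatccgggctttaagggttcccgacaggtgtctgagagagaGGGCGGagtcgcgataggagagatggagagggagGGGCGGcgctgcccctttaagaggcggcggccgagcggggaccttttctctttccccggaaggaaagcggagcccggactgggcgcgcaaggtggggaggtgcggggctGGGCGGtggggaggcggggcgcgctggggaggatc
Itgb1: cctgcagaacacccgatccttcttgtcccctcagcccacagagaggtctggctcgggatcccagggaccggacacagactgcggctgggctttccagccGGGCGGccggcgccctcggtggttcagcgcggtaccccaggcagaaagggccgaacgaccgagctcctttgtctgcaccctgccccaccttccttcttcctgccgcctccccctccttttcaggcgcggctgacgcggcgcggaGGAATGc
Itgb8: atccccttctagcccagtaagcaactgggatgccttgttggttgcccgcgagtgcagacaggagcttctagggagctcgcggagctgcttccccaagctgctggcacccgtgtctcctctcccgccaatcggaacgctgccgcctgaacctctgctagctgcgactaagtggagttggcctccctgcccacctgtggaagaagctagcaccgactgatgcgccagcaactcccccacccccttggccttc
The Itga3 window was 67.6% G or C and held 3 GC boxes, which begin 178, 144 and 35 bases before the start. The Itgb1 window was 68.0% G or C, with 1 GC box beginning 151 bases before the start and 1 TEAD match beginning 7 bases before it. The Itgb8 window was 62.4% G or C and held none of the 3 motifs. Over the 9 subunit genes with an entry, 4 had a GC box, 0 an AP-1 site and 1 a TEAD site, and among all 32851 promoters of this length 32.7%, 6.75% and 12.6% held them.

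Itga3, the alpha chain of the podocyte laminin receptor, had the lowest p of the set in both strains. Its signal was 7.80, 7.50 and 7.17 in 129S2SvPAs anti-GBM GN, against 6.08, 6.26 and 5.82 in 129S2SvPAs controls. In C57BL6J it was 7.97, 8.00 and 7.86 in anti-GBM GN, against 6.52, 6.83 and 6.61 in controls. All challenged arrays lay above all control arrays, across strains as well. The difference was 1.44 (SE 0.17, adjusted p = 0.000233 in limma) in 129S2SvPAs, or 2.71-fold, and 1.29 (SE 0.17, adjusted p = 0.00113 in limma) in C57BL6J, or 2.45-fold. Larger differences were seen in 382 genes in 129S2SvPAs and in 308 in C57BL6J. A second Itga3 probe set gave 0.75 (adjusted p = 0.0760 in limma) in 129S2SvPAs and 1.10 (adjusted p = 0.0353 in limma) in C57BL6J, so it passed in C57BL6J and missed the threshold in 129S2SvPAs. The third lay at the floor.

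Itgb1, the beta chain shared by most matrix receptors, gave 9.24, 10.19 and 10.15 in 129S2SvPAs anti-GBM GN, against 8.67, 8.65 and 7.82 in 129S2SvPAs controls. In C57BL6J it gave 10.08, 10.14 and 9.44 in anti-GBM GN, against 8.64, 8.92 and 8.41 in controls. The groups did not overlap in either strain, and the arrays within each group were more scattered than for Itga3. It rose by 1.48 (SE 0.31, adjusted p = 0.00728 in limma) in 129S2SvPAs and by 1.23 (SE 0.31, adjusted p = 0.0404 in limma) in C57BL6J, which is 2.79-fold and 2.35-fold. The C57BL6J call was lost when any 1 of 7 arrays was left out, namely 129S2SvPAs anti-GBM GN replicate 3, 129S2SvPAs control replicate 2, C57BL6J anti-GBM GN replicates 1 and 2, and each C57BL6J control. Over all 12 such fits the difference was between 1.10 and 1.45 and the adjusted p reached 0.166. The next brightest probe set gave 1.42 (adjusted p = 0.0169 in limma) in 129S2SvPAs and 1.22 (adjusted p = 0.0685 in limma) in C57BL6J. Of the remaining 4 Itgb1 probe sets, 3 lay at or near the floor and 1, between 4.18 and 5.43, gave 0.58 in 129S2SvPAs and 0.21 in C57BL6J, without a call.

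Itga6, the other laminin-binding alpha chain of the set, which also pairs with Itgb4 in epithelia, read 10.27, 9.82 and 9.67 in 129S2SvPAs anti-GBM GN, against 9.08, 8.45 and 9.19 in 129S2SvPAs controls. In C57BL6J the arrays read 10.23, 10.59 and 10.16 in anti-GBM GN, against 9.80, 9.64 and 10.10 in controls. Challenged and control arrays were separate in both strains, though in C57BL6J by a narrow gap. The difference of 1.01 (SE 0.23, adjusted p = 0.00969 in limma) in 129S2SvPAs passed the threshold, and the 0.48 (SE 0.23, adjusted p = 0.261 in limma) in C57BL6J did not. The second Itga6 probe set gave 1.13 (adjusted p = 0.00740 in limma) in 129S2SvPAs and 0.72 (adjusted p = 0.107 in limma) in C57BL6J. With the probe sets of each gene averaged, the C57BL6J difference of Itga6 was 0.60 and passed (adjusted p = 0.0347 in limma), while Itgb1 in C57BL6J (0.45, adjusted p = 0.0985 in limma) and Itgb6 in 129S2SvPAs (0.97, adjusted p = 0.0754 in limma) no longer did.

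Itga1, a collagen receptor chain found on mesangial and endothelial cells, was not called in either strain. Its signal was 7.21, 7.20 and 6.99 in 129S2SvPAs anti-GBM GN and 7.38, 6.70 and 6.82 in 129S2SvPAs controls, and it was 7.0, 7.18 and 7.42 in C57BL6J anti-GBM GN and 7.01, 6.97 and 7.17 in C57BL6J controls. All 4 groups overlapped. The difference was 0.17 (95% interval -0.23 to 0.56) in 129S2SvPAs and 0.15 (-0.24 to 0.54) in C57BL6J.

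Itgav, the alpha chain common to the RGD receptors, had small differences with little scatter. It gave 11.20, 11.01 and 10.98 in 129S2SvPAs anti-GBM GN, against 10.80, 10.44 and 10.64 in 129S2SvPAs controls, and 10.87, 10.85 and 11.12 in C57BL6J anti-GBM GN, against 10.58, 10.54 and 10.55 in C57BL6J controls. Every challenged array lay above every control array, across strains as well. It rose by 0.44 in 129S2SvPAs (SE 0.12, adjusted p = 0.0290 in limma), or 1.35-fold, and the difference in C57BL6J was 0.39 (SE 0.12, adjusted p = 0.0914 in limma). Without 129S2SvPAs anti-GBM GN replicates 1 or 2 or 129S2SvPAs control replicates 2 or 3, left out singly, the call in 129S2SvPAs was lost, with values of 0.34 to 0.46.

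Among the beta chains that pair with Itgav, Itgb8 fell in 129S2SvPAs. Its signal was 9.49, 9.90 and 10.07 in 129S2SvPAs anti-GBM GN, against 10.87, 10.31 and 10.74 in 129S2SvPAs controls, and the groups did not overlap. In C57BL6J it was 10.28, 9.98 and 9.89 in anti-GBM GN, against 10.35, 9.96 and 10.17 in controls, which overlapped. The 129S2SvPAs fall was -0.82 (SE 0.20, adjusted p = 0.0130 in limma), a level 0.566 times that of controls, and the C57BL6J difference was -0.11 (95% interval -0.54 to 0.32). Without 129S2SvPAs control replicate 1 the fall was -0.71 and missed the threshold (adjusted p = 0.0521 in limma). This gene had 1 probe set, so there was no second reading.

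Itgb6, a chain of epithelial cells, had the largest difference of the set and the least even arrays. It gave 6.08, 6.96 and 5.84 in 129S2SvPAs anti-GBM GN, against 6.0, 3.33 and 4.16 in 129S2SvPAs controls, so control replicate 1 lay within the challenged range. In C57BL6J it gave 6.21, 5.66 and 5.54 in anti-GBM GN, against 6.08, 5.82 and 6.24 in controls. The 129S2SvPAs difference was 1.80 (SE 0.55, adjusted p = 0.0416 in limma) and the C57BL6J one -0.24 (SE 0.55). As the 3.33 of 129S2SvPAs control replicate 2 lay near the floor, the sizes of Itgb6 differences that use it are uncertain. The 129S2SvPAs call held in 1 of 12 fits that left out an array, the one without 129S2SvPAs control replicate 1 (2.55, adjusted p = 0.00144 in limma). The adjusted p reached 0.140, and the value was 1.21 without 129S2SvPAs control replicate 2. The other Itgb6 probe set was near the floor.

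Itgb5, which with Itgav binds vitronectin, was not called. It read 10.14, 9.06 and 9.12 in 129S2SvPAs anti-GBM GN, against 9.41, 9.63 and 9.50 in 129S2SvPAs controls. In C57BL6J it read 9.81, 9.42 and 9.73 in anti-GBM GN, against 10.15, 10.06 and 9.92 in controls, where the groups did not overlap. The difference was -0.07 (SE 0.25) in 129S2SvPAs and -0.39 (SE 0.25, adjusted p = 0.416 in limma) in C57BL6J. Replicate 1 of 129S2SvPAs anti-GBM GN was the high array, and without it the 129S2SvPAs difference was -0.42 (adjusted p = 0.0528 in limma). The other 3 probe sets gave -0.17 to -0.32 in 129S2SvPAs and -0.31 to -0.50 in C57BL6J, without a call.

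**Figure D2:**
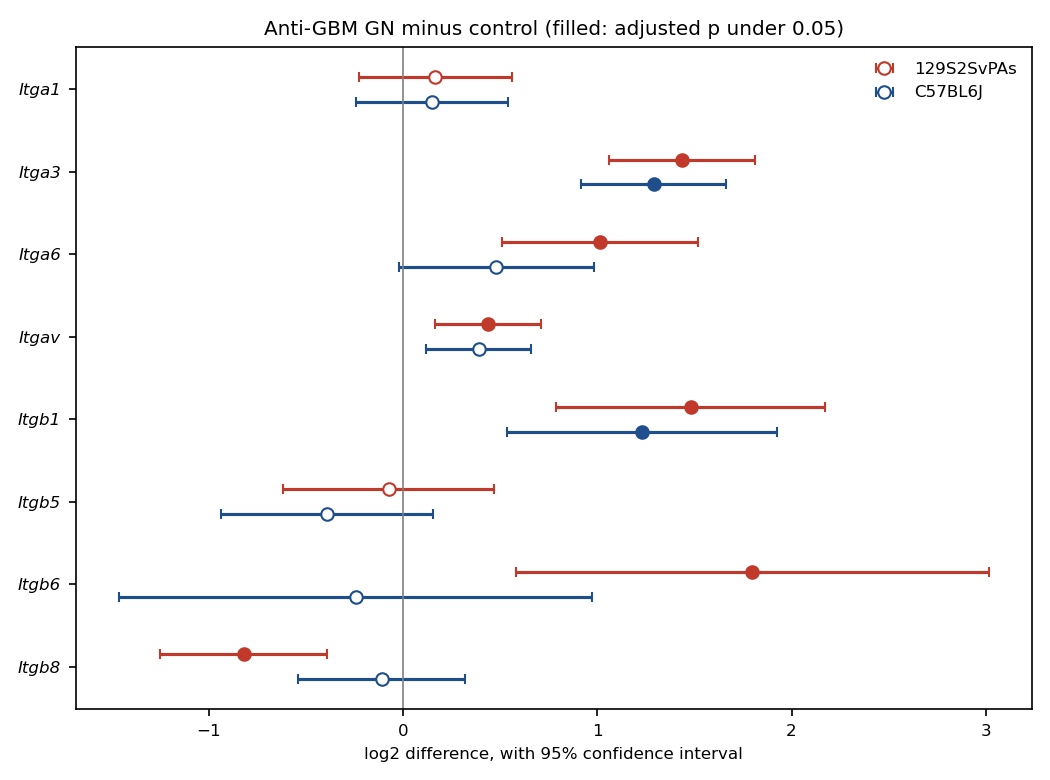
Difference of the log2 signal, anti-GBM GN minus control, for the 8 subunits tested, with the 95% confidence interval of limma's fit. Filled points passed an adjusted p of 0.05, which are 6 subunits in 129S2SvPAs and 2 in C57BL6J. The intervals of the 2 strains overlap for every subunit.

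In 129S2SvPAs 4 subunits were higher on all challenged arrays than on all controls (Itga3, Itga6, Itgav, Itgb1) and 1 was lower (Itgb8), as were 16.4% and 16.1% of all genes tested. In C57BL6J the same 4 were higher and 1 was lower (Itgb5), as were 13.2% and 16.0% of all genes. Without the 129S2SvPAs anti-GBM GN array that stood apart, 3 subunits were called higher and 1 lower in 129S2SvPAs, where 1459 of 11920 genes were called higher and 1190 lower. Tubule transcripts moved with anti-GBM GN in 129S2SvPAs, where 6 of 14 proximal tubule markers and 5 of 10 distal nephron markers were called lower (0 and 2 called higher). Among all genes 9.77% were called lower there and 10.6% higher. With the mean proximal tubule marker level added to the fit, 0 of the 8 subunits were called in 129S2SvPAs by limma and 2 had an unadjusted p under 0.05, while 171 genes in all were called. In that fit Itga3 was at 1.34 (adjusted p = 0.0902 in limma), Itgb1 at 1.20, Itga6 at 0.86, Itgav at 0.45, Itgb6 at 1.15 and Itgb8 at -1.14. The marker level relative to each gene's average was -0.50 to -0.28 in 129S2SvPAs anti-GBM GN and 0.14 to 0.32 in 129S2SvPAs controls. As these ranges do not overlap, marker level and anti-GBM GN cannot be told apart in 129S2SvPAs, and the lost calls do not decide between them.

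Whether the strains differed in their response was tested directly. By limma 0 of the 8 subunits passed and 2 had an unadjusted p under 0.05, in a comparison where 0.562% of all genes were called. For Itgb6 the response in 129S2SvPAs was larger by 2.04 (95% interval 0.32 to 3.76, adjusted p = 0.364 in limma), and for Itgb8 it was lower by -0.71 (-1.32 to -0.10, adjusted p = 0.375 in limma). For Itga6 the difference was 0.53 (-0.18 to 1.24), for Itgb1 0.25 (-0.73 to 1.23) and for Itga3 0.15 (-0.38 to 0.68). The calls made in 129S2SvPAs alone are therefore not shown to be particular to that strain, and the interval of Itga6 reaches beyond its response of 1.01 in 129S2SvPAs.

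The strains were also compared within each condition. In anti-GBM GN 0 of the 8 subunits were called between strains by limma and 1 had an unadjusted p under 0.05, where 8.38% of all genes were called, 3.49% higher and 4.89% lower in 129S2SvPAs. That 1 was Itga3, lower in 129S2SvPAs by -0.45 (adjusted p = 0.144 in limma) with no overlap of the arrays, as 12.6% of genes were lower and 15.3% higher without overlap. Without 129S2SvPAs anti-GBM GN replicate 1 it was -0.61 and passed (adjusted p = 0.0419 in limma), as did Itgb5 at -0.56 (adjusted p = 0.0317 in limma). In controls 1 subunit was called, Itga6, lower in 129S2SvPAs by -0.94 (SE 0.23, adjusted p = 0.0291 in limma), where 8.43% of all genes were called, 3.32% higher and 5.11% lower. The 129S2SvPAs controls gave 9.08, 8.45 and 9.19 for Itga6 and the C57BL6J controls 9.80, 9.64 and 10.10. This call was lost without 129S2SvPAs control replicates 1 or 2 or any of the 3 C57BL6J controls, left out singly, with values of -0.71 to -1.04. With the second probe set it was -0.67 (adjusted p = 0.124 in limma).

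Of the others in controls, Itga3 was at -0.60 (adjusted p = 0.0542 in limma), Itgb5 at -0.53, Itgb6 at -1.55 and Itgb8 at 0.48 (adjusted p = 0.173 in limma), none past the threshold. With the replicate number as a block in the fit the Itga3 value was the same and passed (adjusted p = 0.0377 in limma). Itga3, Itga6 and Itgb5 were lower in 129S2SvPAs controls without overlap, as were 14.3% of all genes, while 17.3% of all genes were higher without overlap. Without 129S2SvPAs control replicate 1 the Itgb6 value was -2.30 and passed (adjusted p = 0.00493 in limma). Podocyte markers differed in the same direction between strains, with 8 of 10 called lower in 129S2SvPAs controls, and their mean level relative to each gene's own average was -0.59 ± 0.37 in 129S2SvPAs controls and 0.90 ± 0.32 in C57BL6J controls (SD, n = 3). Endothelial markers were called lower in 4 of 13, at -0.99 ± 0.67 in 129S2SvPAs controls and 0.19 ± 0.35 in C57BL6J controls. Beside these 2 lists, 5.11% of all genes were called lower in 129S2SvPAs controls. The part of either list in the lower Itga6 signal was not tested.

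**Figure D3:**
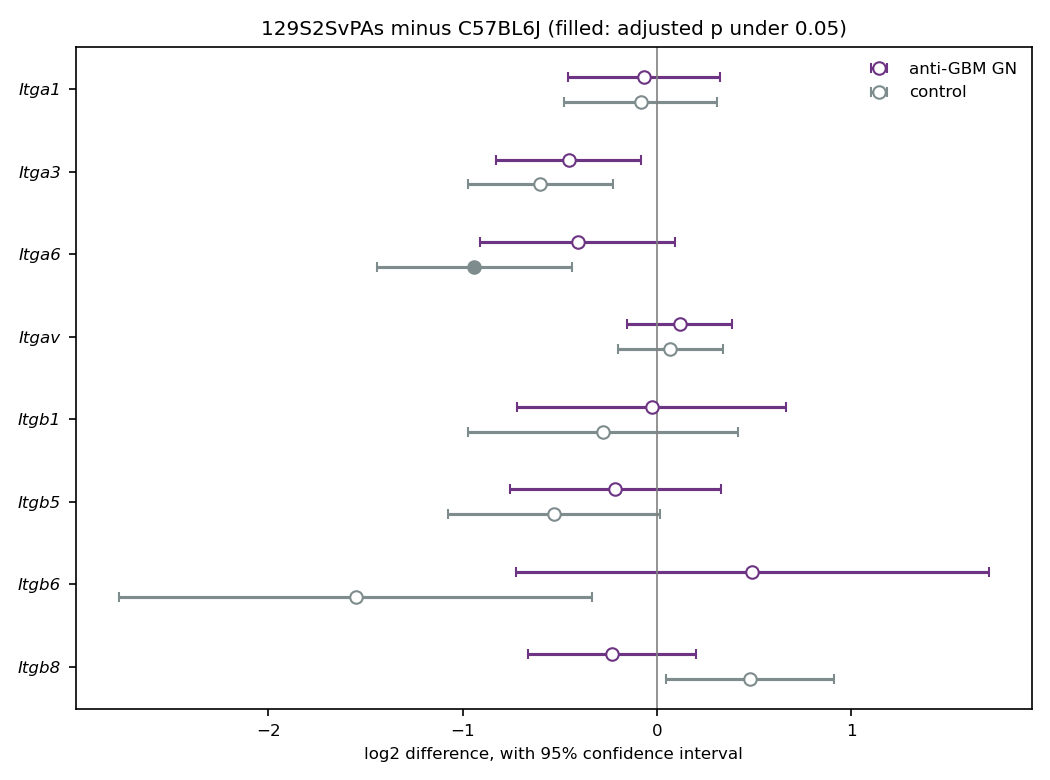
Difference of the log2 signal, 129S2SvPAs minus C57BL6J, for the 8 subunits tested, in anti-GBM GN and in controls, with the 95% confidence interval of limma's fit. The filled point, Itga6 in controls, passed an adjusted p of 0.05.

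Ordered by level, the groups of Itga3 did not overlap at any step: C57BL6J anti-GBM GN was at 7.94 ± 0.07, 129S2SvPAs anti-GBM GN at 7.49 ± 0.32, C57BL6J controls at 6.65 ± 0.16 and 129S2SvPAs controls at 6.05 ± 0.22 (SD, n = 3 each). For Itgb1 the 2 challenged groups overlapped (9.86 ± 0.54 in 129S2SvPAs, 9.89 ± 0.39 in C57BL6J), as did the 2 control groups (8.38 ± 0.49 in 129S2SvPAs, 8.66 ± 0.26 in C57BL6J). Itgav had the same 2 levels, 11.06 ± 0.12 and 10.95 ± 0.15 in challenged 129S2SvPAs and C57BL6J glomeruli and 10.63 ± 0.18 and 10.56 ± 0.02 in their controls. For Itga6 the 129S2SvPAs controls stood below the 3 other groups, at 8.91 ± 0.40. For Itgb8 all neighbours in the order overlapped, with 129S2SvPAs controls at the top (10.64 ± 0.29) and 129S2SvPAs anti-GBM GN at the bottom (9.82 ± 0.30).

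**Figure D4:**
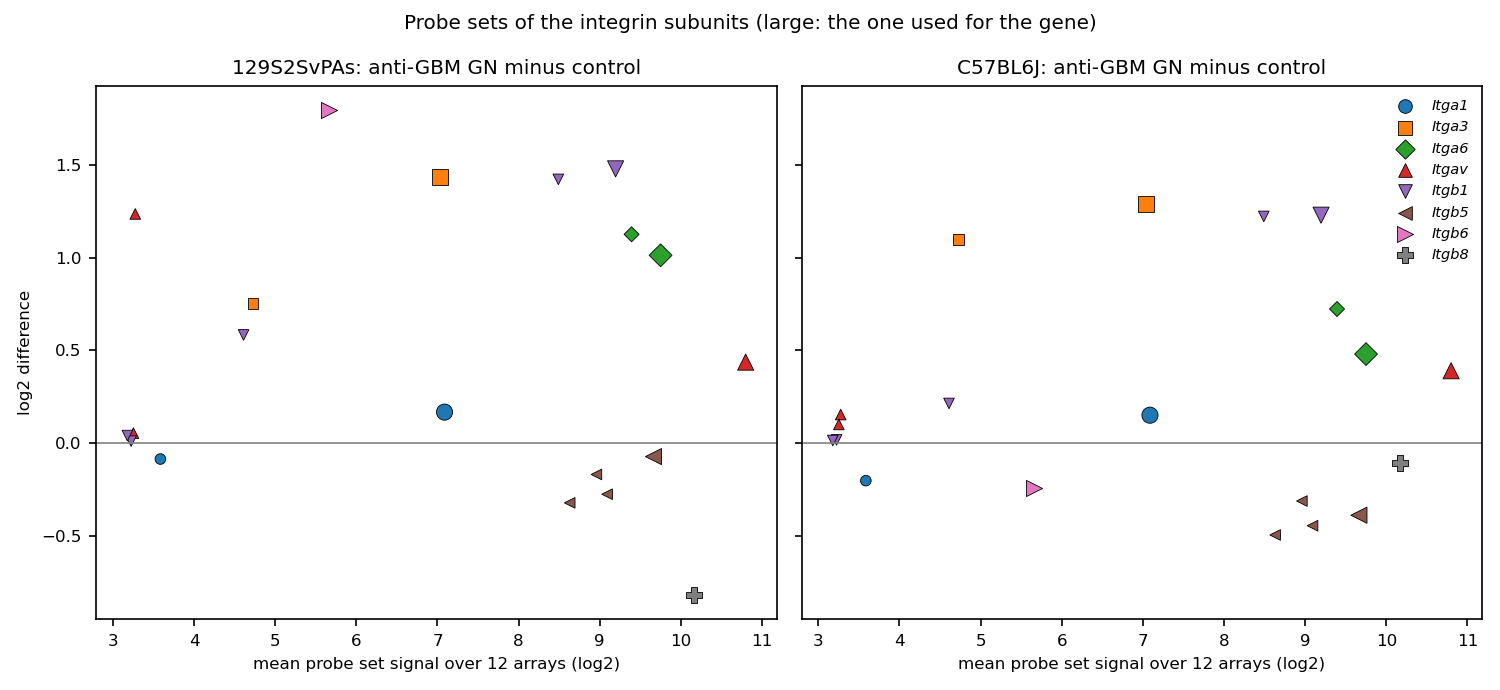
Difference of the log2 signal, anti-GBM GN minus control, against the mean signal over 12 arrays, for the probe sets of the 8 subunits that passed the filter. Large symbols are the probe set used for each gene, and the bright probe sets of Itgb1, Itga6 and Itgb5 lie close to each other, while those near the floor lie close to 0 except 1 of Itgav in 129S2SvPAs.

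Of the 30 probe sets 21 passed the filter, among them 13 that were not used for their gene. For the 8 subunits tested, 1 near the floor went beyond the one used, a dim Itgav probe set between 2.72 and 4.63. It gave 1.24 (adjusted p = 0.00634 in limma) in 129S2SvPAs and 0.15 in C57BL6J, against 0.44 and 0.39 for the bright Itgav probe set. Part of that range lies on the floor, so the size of the Itgav difference cannot be read from this probe set. Another dim Itgav probe set gave 0.05 in 129S2SvPAs and 0.10 in C57BL6J. The dim probe sets of Itga5 that were not used gave up to 0.40 in 129S2SvPAs and 0.49 in C57BL6J, without a call.

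As a description over all 12 arrays, which fall into 4 groups, Itga3 and its partner Itgb1 had Pearson's r = 0.84, and 0.04 once each group's mean was taken out. Itga6 and Itgb1 had r = 0.54, and -0.53 within groups, and Itgav and Itgb8 r = -0.54, and 0.0064 within groups. The genes most like Itga3 were Relb (r = 0.99), Myh9 (0.99) and Plekhg2 (0.99). Itgb1 was most like Pitpna (0.98), Sorbs2 (0.98) and Ccnyl1 (0.98), Itga6 like Bcl7c (0.96), Spsb3 (0.96) and Ccdc124 (0.95), and Itgb8 like Cdkl1 (0.94), C330018D20Rik (0.93) and Atp5pb (0.93), all over 12 arrays that share the same 4 groups.

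The other integrin chains were measured for context. Of 6 other beta chains 2 passed the filter, and Itgb3, the partner of Itgav on many cells and of Itga2b on platelets, rose in both strains. It gave 3.60, 5.12 and 5.86 in 129S2SvPAs anti-GBM GN against 2.33, 2.36 and 2.39 in 129S2SvPAs controls, and 5.83, 6.70 and 7.15 in C57BL6J anti-GBM GN against 2.54, 2.55 and 2.66 in C57BL6J controls. The differences were 2.5 (SE 0.48, adjusted p = 0.00419 in limma) in 129S2SvPAs and 3.98 (SE 0.48, adjusted p = 0.000651 in limma) in C57BL6J. All control arrays of Itgb3 were on the floor, so these values may understate its change. Some platelet markers were called higher with it, 3 of 6 in 129S2SvPAs and 4 of 6 in C57BL6J (10.6% and 4.78% of all genes). Itgb3 itself was 1 of the 6. Its platelet partner Itga2b was not called, at 0.33 in 129S2SvPAs (adjusted p = 0.0887 in limma) and 0.0067 in C57BL6J. Gp1bb was not called in either strain. The mean relative level of the 6, Itgb3 included, was 0.29 to 0.75 in 129S2SvPAs anti-GBM GN against -1.38 to -1.33 in 129S2SvPAs controls. In C57BL6J it was 1.17 to 2.01 in anti-GBM GN against -1.18 to -0.57 in controls. The platelet glycoprotein gene Gp6 was below the table median on all arrays, and the part of platelets in the Itgb3 signal was not tested.

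Of 6 other alpha chains that passed the filter, 1 was called. Itga9, a receptor chain for tenascin and other ligands, gave 6.96, 7.72 and 8.23 in 129S2SvPAs anti-GBM GN against 5.25, 5.28 and 6.07 in 129S2SvPAs controls, a rise of 2.10 (SE 0.34, adjusted p = 0.00152 in limma). In C57BL6J it lay between 4.19 and 5.07 in anti-GBM GN and between 3.74 and 3.93 in controls, without a call. The 129S2SvPAs arrays were above the C57BL6J arrays in both conditions, by 3.10 in anti-GBM GN (adjusted p = 0.00025 in limma) and 1.71 in controls (adjusted p = 0.0105 in limma). Itga8, the mesangial partner of Itgb1, had 8.86 to 9.35 in 129S2SvPAs anti-GBM GN and 8.03 to 8.44 in 129S2SvPAs controls, without a call. The leukocyte chains Itgal and Itgb2 were lower in 129S2SvPAs than in C57BL6J in anti-GBM GN, by -2.72 (adjusted p = 0.00555 in limma) and -1.74 (adjusted p = 0.0312 in limma), and neither was called in a response. Itgal was partly on the floor in 129S2SvPAs anti-GBM GN (2.46 to 3.48), so its difference may be understated. Of 9 leukocyte markers tested, Itgb2 among them, 3 were called lower in 129S2SvPAs in that comparison, as were 4.89% of all genes. Itgam, Cd3e and Cd79a were below the table median on all arrays.

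Matrix ligands of these receptors were counted in the same way, in lists also chosen with earlier results known, so their counts and medians are descriptions. Of 18 collagen and laminin genes tested, 7 were called higher in 129S2SvPAs and 5 in C57BL6J, none lower, with medians of 0.80 and 0.84. Among all genes tested 10.6% were called higher and 9.77% lower in 129S2SvPAs, and 4.78% and 2.31% in C57BL6J. Lamc1, the gamma chain of most laminins, rose by 2.85 (SE 0.17) in 129S2SvPAs and 2.09 (SE 0.17) in C57BL6J. Its signal was 7.08 to 7.51 in 129S2SvPAs anti-GBM GN against 4.38 to 4.44 in 129S2SvPAs controls. The collagen IV chains Col4a1 and Col4a2 rose by 2.66 and 2.84 in 129S2SvPAs and by 2.28 and 2.10 in C57BL6J. The linker nidogen, Nid1, rose by 2.21 in 129S2SvPAs (1.11 in C57BL6J, adjusted p = 0.0578 in limma), and Lama5, the alpha chain of mature glomerular laminin, by 1.13 in C57BL6J (0.52 in 129S2SvPAs, adjusted p = 0.0749 in limma). Col4a3 and Col4a4, chains of the adult basement membrane network, were at 0.26 and -0.11 in 129S2SvPAs and at 0.46 and 0.52 in C57BL6J, without a call.

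Ligands with the RGD motif or of provisional matrix were called higher in 14 of 18 in 129S2SvPAs and 10 of 18 in C57BL6J, none lower, with medians of 1.83 and 1.39. The shares of all genes called higher were 10.6% in 129S2SvPAs and 4.78% in C57BL6J. Nid1 is counted in both ligand lists. Ccn1, a matricellular ligand of Itgav receptors, gave 8.20 to 8.79 in 129S2SvPAs anti-GBM GN against 4.22 to 4.99 in 129S2SvPAs controls, a rise of 3.93 (SE 0.23). In C57BL6J it gave 8.10 to 8.40 in anti-GBM GN against 4.42 to 5.0 in controls, a rise of 3.48 (SE 0.23). Ltbp1, which holds latent TGF-beta in the matrix and presents it to Itgb6 and Itgb8 receptors, rose by 2.97 in 129S2SvPAs and 2.53 in C57BL6J. Tnc, tenascin C, rose by 1.85 in 129S2SvPAs and 2.06 in C57BL6J. Its controls lay at or near the floor (2.80 to 2.92 in 129S2SvPAs, 2.97 to 3.34 in C57BL6J), so these may be understated. The fibrinogen chain Fga rose by 3.09 in 129S2SvPAs and 3.17 in C57BL6J, and the elastic fibre protein Fbln5 by 2.44 and 1.27. Fibronectin, Fn1, named here after its values were seen because it is the ligand of Itga5, rose by 1.82 in 129S2SvPAs (adjusted p = 0.00759 in limma) and was at 1.22 in C57BL6J (adjusted p = 0.0947 in limma), with 129S2SvPAs controls partly on the floor (2.48 to 3.59). Npnt and Vwf were at 0.81 and 0.15 in 129S2SvPAs and at 0.81 and 0.34 in C57BL6J, without a call.

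Inside the cell, integrin activators and adaptors were called higher in 9 of 27 and lower in 1 in 129S2SvPAs, and higher in 7 and lower in 1 in C57BL6J, with a median of 0.39 in each. All genes tested gave 10.6% higher and 9.77% lower in 129S2SvPAs, and 4.78% and 2.31% in C57BL6J. Actn1, the alpha-actinin that crosslinks actin at adhesions, rose by 2.63 (SE 0.17) in 129S2SvPAs and 2.31 (SE 0.17) in C57BL6J. Filamin A, Flna, which binds beta chain tails, rose by 2.26 and 2.25. Parvb, a partner of integrin-linked kinase, rose by 2.58 and 1.44, and the paxillin relative Tgfb1i1 by 1.23 and 1.28. Tln2, a talin that switches integrins on, was the 1 that fell, to 8.50 to 8.91 in 129S2SvPAs anti-GBM GN against 9.69 to 10.15 in 129S2SvPAs controls, by -1.24 (SE 0.21, adjusted p = 0.00203 in limma), and in C57BL6J by -0.98 (adjusted p = 0.0175 in limma). The other talin, Tln1, was at 0.04 in 129S2SvPAs and 0.50 in C57BL6J, without a call.

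Of 9 adhesion kinases 4 were called higher in 129S2SvPAs, namely Pak2 by 0.55, Fyn by 0.97, Limk1 by 1.21 and Csk by 0.36, and 1 in C57BL6J, Limk1 by 1.51. Src was at 0.35 in 129S2SvPAs and 0.10 in C57BL6J, without a call. Of 14 tetraspanins and other lateral partners 5 rose in 129S2SvPAs and 6 in C57BL6J. Beside both lists, 10.6% of all genes were called higher in 129S2SvPAs and 4.78% in C57BL6J. Cd151, the tetraspanin bound to Itga3 and Itga6 receptors, gave 11.31 to 11.55 in 129S2SvPAs anti-GBM GN against 10.39 to 10.47 in 129S2SvPAs controls, a rise of 1.01 (SE 0.11, adjusted p = 0.000146 in limma), and rose by 0.55 in C57BL6J (adjusted p = 0.0120 in limma). The urokinase receptor Plaur rose by 1.99 in 129S2SvPAs and 1.33 in C57BL6J, caveolin Cav1 by 1.64 and 1.29, dystroglycan Dag1, a laminin receptor outside the integrin family, by 0.45 and 0.73, and the tetraspanin Cd9 by 1.0 and 1.27. Cd81 and Bsg were at 0.29 and -0.06 in 129S2SvPAs and at 0.41 and 0.0033 in C57BL6J, without a call.

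In the difference of responses 0 genes of these 7 lists were called by limma. Between strains in controls, signals are compared on the 1 probe set used for each gene, and other probe sets were not checked for these lists. Sdc4, a syndecan that helps fibronectin receptors, had a signal higher in 129S2SvPAs by 2.00 (SE 0.15). It lay at 12.10 to 12.21 in 129S2SvPAs and at 10.08 to 10.25 in C57BL6J. The signal of Bcam, a receptor for laminin alpha 5, was lower in 129S2SvPAs controls by -2.88 (SE 0.48). There it lay at 1.74 to 3.37, partly on the floor, so the difference may be understated. Also lower in signal in 129S2SvPAs controls were Parvb by -1.37, Lamc1 by -1.41 and Col1a2 by -2.47. Of the collagen and laminin list 4 of 18 were called lower in 129S2SvPAs in each condition and 0 higher. The share of all genes called lower was 4.89% in anti-GBM GN and 5.11% in controls. With anti-GBM GN 10.6% of all genes were called higher and 9.77% lower in 129S2SvPAs, and 4.78% and 2.31% in C57BL6J. Mesangial markers were called higher with anti-GBM GN in 5 of 10 in 129S2SvPAs and 3 of 10 in C57BL6J, none lower. Their mean relative level was 0.49 ± 0.18 in 129S2SvPAs anti-GBM GN and -0.81 ± 0.09 in 129S2SvPAs controls, and 0.70 ± 0.19 in C57BL6J anti-GBM GN and -0.39 ± 0.34 in C57BL6J controls (SD, n = 3 each). Tagln weighs on this mean, as it rose by 5.70 in 129S2SvPAs and 5.29 in C57BL6J. Itga8, Gata3, Cspg4, Myh11 and Notch3 of the same list were not called in either response. Podocyte markers were called higher in 3 of 10 and lower in 3 in 129S2SvPAs, and higher in 1 and lower in 2 in C57BL6J. Of 7 parietal epithelial markers 2 were called higher in each strain and none lower. The part of the cell makeup in the integrin and ligand differences was not tested.

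**Figure D5:**
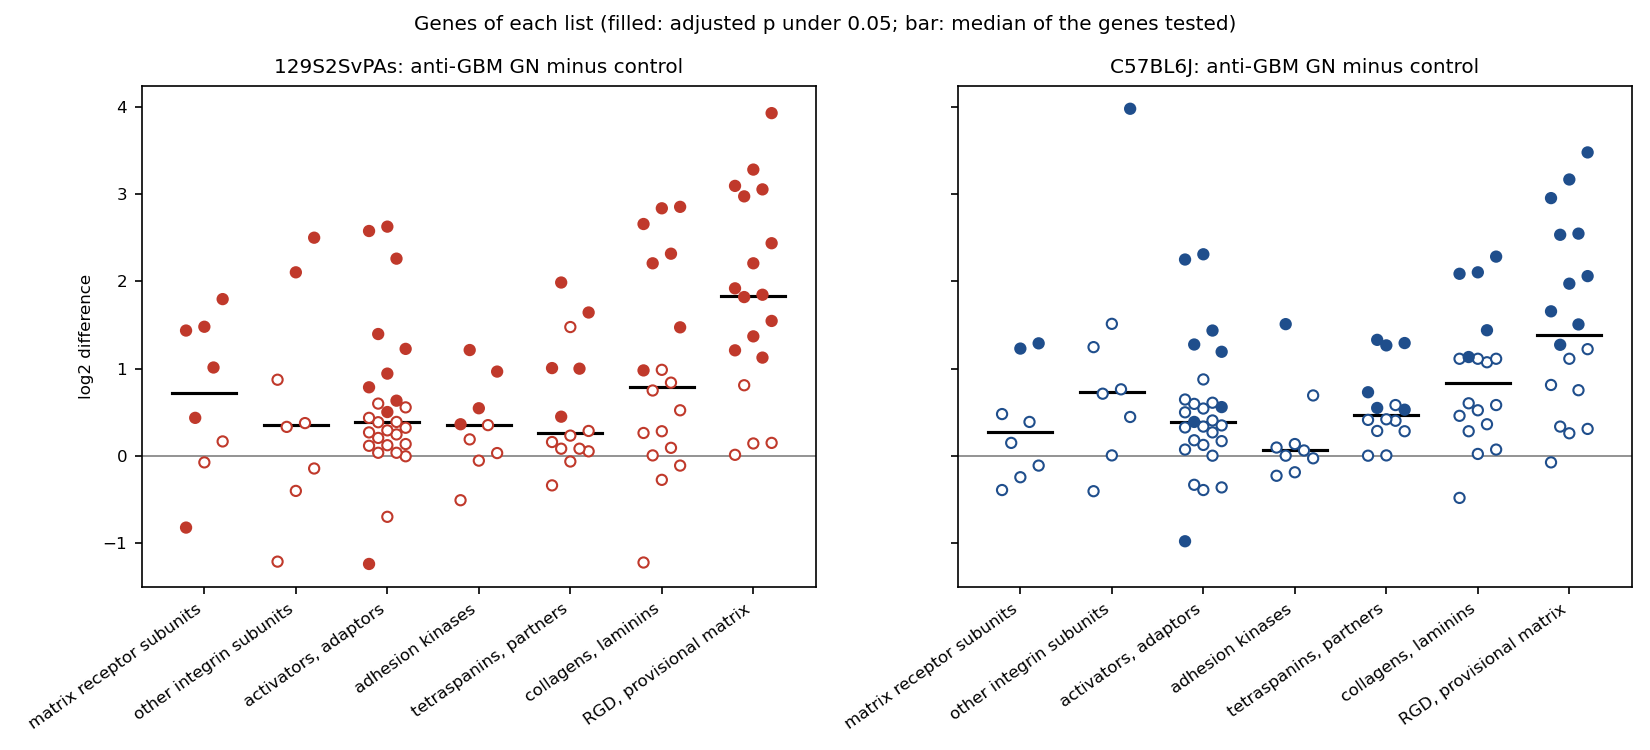
Difference of the log2 signal, anti-GBM GN minus control, for each gene tested of the integrin subunits and the lists around them, in 129S2SvPAs (left) and C57BL6J (right). Filled points passed an adjusted p of 0.05 and bars are list medians, which are highest for the RGD and provisional matrix ligands (1.83 in 129S2SvPAs and 1.39 in C57BL6J).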

How the data were processed

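RNA of isolated glomeruli was measured on 12 Affymetrix arrays, 1 per mouse, 3 in each of 4 groups taken from the sample titles. The authors deposited 1 log2 signal per probe set and array, with 2 decimals. The submitters' processing notes name both MAS5 and GCRMA but give no version, nor the one behind these values, and the log2 scale was read from their range (1.12 to 15.02). The values came as 1 table, so background correction and slides could not be varied or tested. Of 45037 probe sets 34945 had 1 gene symbol, 932 several and 9160 none by the platform annotation, and 34741 were matched by Entrez identifier to a RefSeq gene table, which changed 0 symbols. Each gene took its probe set with the highest mean. No genome build is given for the values, so the coordinates printed are those of the RefSeq promoters.

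A model with 4 group means was fitted to the 12 arrays with limma 3.58.1 in R 4.3.3 (10.7 degrees of freedom), followed by 5 contrasts: the response of each strain (anti-GBM GN minus control), the difference of the responses, and 129S2SvPAs minus C57BL6J within anti-GBM GN and within controls. Genes needed a signal above 3.03 on at least 3 arrays, and p-values were adjusted over the 11920 genes tested. The p-values set each difference against the spread between mice within the groups on these arrays. In simulated data with 200 of 11920 genes changed by a log2 of 1, limma recovered 58.5% in the 129S2SvPAs response, 66% in the C57BL6J response, 63.5% between strains in anti-GBM GN and 61% between controls. With a log2 of 2 it recovered 96%, 95.5%, 95.5% and 96%, with at most 13 false calls in any run. The real responses had 2424 genes called in 129S2SvPAs and 845 in C57BL6J, more than the 200 simulated. As the adjustment depends on how many genes change, these rates need not hold for the real contrasts.

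The members and gene lists were chosen with earlier results of these data known. The text names all 10 subunits, of each other list up to 4 called genes per contrast with the lowest p and up to 2 without a call, and the 3 genes with the highest Pearson's r for the 4 subunits with the lowest p in a response. Marker levels are means over a list's tested genes after each gene's mean over the 12 arrays was taken off. Some listed genes, such as Ptk2, are not analysed here. The labels do not say that a replicate number marks a shared batch. Arrays with the same number had correlations of 0.21 to 0.33 of their deviations from group means between C57BL6J anti-GBM GN and C57BL6J controls. Between 129S2SvPAs and C57BL6J controls these were 0.24 to 0.28, so every such pair passed a limit of 0.1 in these 2 comparisons. Arrays of the 2 control groups with different numbers had -0.16 to -0.08. In the other 2 comparisons within a strain or condition, both with 129S2SvPAs anti-GBM GN, the same-number correlations ran from -0.38 to 0.18. Arrays with different numbers could pass the limit as well, such as C57BL6J anti-GBM GN replicate 1 with C57BL6J control replicate 2 (0.15). Over all groups different numbers gave -0.39 to 0.36 (median -0.062) and the same number -0.38 to 0.33 (median 0.15). A shared batch is therefore neither established nor excluded. Alternatives were other scalings, filters, probe sets and designs, and leaving out each array. Python 3.11.15 with matplotlib 3.10.9 and pandas 2.3.3 drew the figures.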

Additional observations from a re-analysis of the deposited data

How the results depend on the processing

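With 3 arrays a group, most calls near the threshold depend on the fit, and Itga3 in both strains and Itgb1 and Itga6 in 129S2SvPAs were called in each of the 12 fits that left out an array. Over those 12 fits the genes called were 1768 to 2649 in the 129S2SvPAs response, 407 to 1141 in the C57BL6J response, 15 to 136 in the difference of responses, 612 to 1117 between strains in anti-GBM GN and 503 to 1288 between controls. The subunits called were 4 to 5, 1 to 2, 0 to 0, 0 to 2 and 0 to 3 in the same order. The main numbers of genes were 2424, 845, 67, 999 and 1005, and of subunits 6, 2, 0, 0 and 1. The highest counts of genes in all but the comparison in anti-GBM GN came without 129S2SvPAs anti-GBM GN replicate 1, the array that stood apart. With array weights the genes called were 3827, 2022, 286, 2256 and 1601, and the subunits called 3 in C57BL6J (Itgav besides Itga3 and Itgb1), 3 between strains in anti-GBM GN (Itga3, Itga6, Itgb5) and 2 in controls (Itga3, Itga6). With the fit restricted to the 2 groups of a comparison 1441 genes and 2 subunits (Itga3, Itgb1) passed in 129S2SvPAs and 588 genes between strains in anti-GBM GN, and in controls Itgb5 passed and Itga6 did not. With the proximal tubule covariate 171 genes and 0 subunits passed in 129S2SvPAs by limma (2 subunits at an unadjusted p under 0.05), 1 subunit in C57BL6J, 4 genes in the difference of responses and 326 between strains in anti-GBM GN. The stricter filter left 18 genes and the replicate block 33 in the difference of responses. Between controls 2 subunits passed with the replicate block, the stricter filter or arrays shifted to one median, in each case Itga3 besides Itga6, and without a filter 0 (5 at an unadjusted p under 0.05). The genes called in these 4 fits were 1095 of 11920, 822 of 7758, 990 of 11935 and 767 of 18193. Itgb1 lost its C57BL6J call without a filter, with probe sets averaged (where Itga6 gained one) and with the covariate, so that without a filter and with the covariate 1 subunit passed there. Those 2 fits called 660 of 18193 and 582 of 11920 genes. Itgb6 lost its 129S2SvPAs call with quantile normalization, without a filter and with probe sets averaged, each of which left 4 subunits higher. The genes called higher in these 3 fits were 1212 of 11942, 1094 of 18193 and 1180 of 11325. The replicate block changed no other call of a subunit.

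None of the differences that turned round was called before or after, and the farthest turn was in Itgb1 between strains in anti-GBM GN, to 0.53. For Itga1 they were -0.027 with probe sets averaged and -0.20 with its other probe set in C57BL6J, -0.087 with that probe set in 129S2SvPAs, -0.049 in the difference of responses with quantile normalization, and 0.10 (covariate) and 0.02 (other probe set) between strains in anti-GBM GN. The difference of responses turned to -0.047 (averaged) and -0.35 (second probe set) for Itga3, -0.011 for Itgb5 (covariate), and with a probe set near the floor to -0.0067 for Itgb1 and -0.047 for Itgav. For Itgb1 between strains in anti-GBM GN it was 0.10 (averaged), 0.13 (array weights), 0.077 and 0.077 with 2 probe sets near the floor and 0.53 with the third brightest, and in controls 0.083, 0.05 and 0.16 with those probe sets. Itgav in controls was -0.20 with the dim probe set that rose in 129S2SvPAs. Leaving out an array gave -0.12 to 0.22, -0.17 to 0.043 and -0.29 to 0.05 for Itga1 in the difference of responses, in anti-GBM GN and in controls, -0.0083 to 0.31 for Itga3 in the difference of responses, and -0.047 to 0.13 and -0.017 to 0.16 for Itgav in the difference of responses and in controls. For Itgb1 it gave -0.03 to 0.56, -0.25 to 0.28 and -0.42 to 0.0033 in those 3 comparisons, and for Itgb5 -0.42 to 0.12 in 129S2SvPAs and -0.033 to 0.51 in the difference of responses. The cause was not tested for any of these. The 7 other probe sets below the filter were not used as alternatives, and signals near the floor cannot show a change.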
